A study of Mus musculus with 12 samples.

Results

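Accessible chromatin that lay far from every protein-coding gene was examined in natural killer (NK) cells of the mouse spleen. A region was called far when more than 50 kb separated it from the body of every protein-coding gene of the mm10 genome. Of 45082 accessible regions found in at least 2 of 12 ATAC-seq libraries, 3880 (8.61%) were far, and the other 41202 (91.4%) lay within that distance. In ATAC-seq a transposase inserts adapters into open DNA, and places with many resulting fragments, called peaks, mark accessible chromatin. The members were chosen by position alone, from the strongest peak intervals of each library, as many as the shortest list held, and these lists of equal length were merged wherever intervals shared 1 bp.

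Each library was made from 100000 splenic NK cells, and there were 4 groups of 3 libraries. WT cells carried floxed Regnase-1 alleles (Reg-1 fl/fl), and KO cells came from Reg-1ΔNK mice, in which Regnase-1 is deleted in NK cells by the name of the genotype. The deleted exons, the Cre driver and the age of the mice are not given in the sources used here, so the peak lists were not used to check the deletion. Cells of each genotype were either untreated controls or had been stimulated with IL-12 and IL-18. The labels do not say whether the 3 libraries of a group came from separate mice, so the tests weigh differences against a spread that may be only technical.

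NK cells belong to the innate lymphocytes. They kill virus-infected or transformed cells and secrete interferon gamma, above all when IL-12 and IL-18 act on them together. Zc3h12a encodes Regnase-1, an RNA-cutting enzyme known to destroy messenger RNAs of inflammatory genes. Accessible DNA far from genes often holds enhancers, which act on promoters over long distances and bind lineage factors such as RUNX and T-box proteins as well as factors that signals activate, such as AP-1, NF-kB and STAT proteins. Which gene a distal region acts on cannot be read from its position, so the flanking genes named here are landmarks and not targets.

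Among the far regions, some held the start of a long non-coding RNA gene (lncRNA, a gene whose RNA does not encode a protein), and the sequence at such a start is known from RefSeq (assembly GRCm38.p6, the assembly behind mm10). Windows from 250 bases before to 50 bases after the start lay wholly inside a far region for 119 lncRNA genes, in 113 far regions, as 135 windows in all, some of which overlap. Of those 113 regions, 73 were called in all 12 libraries, 8 were called more often and 8 less often after stimulation by the test described below. The 6 windows below were chosen after their values were seen, as examples of regions that switched with the treatment or the genotype. Each is written 5′ to 3′ on the strand of the gene, with matches to the searched motifs in capitals.

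The regions of these 3 windows were called by all 6 stimulated libraries and by 0 of 6 control libraries. The capitals mark the AP-1 motif TGANTCA, which A530046M15Rik holds 3 times.
Gm36199, chr17:29434568-29434867, + strand, between Fgd2 and Pim1: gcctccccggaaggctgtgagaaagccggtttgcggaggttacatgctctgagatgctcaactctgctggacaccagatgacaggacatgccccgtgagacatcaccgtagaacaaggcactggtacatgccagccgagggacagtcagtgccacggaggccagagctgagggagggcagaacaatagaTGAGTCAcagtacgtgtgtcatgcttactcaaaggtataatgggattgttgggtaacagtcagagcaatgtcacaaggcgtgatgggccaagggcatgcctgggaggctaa
Gm30986, chr2:131744086-131744385, + strand, between Adra1d and Erv3: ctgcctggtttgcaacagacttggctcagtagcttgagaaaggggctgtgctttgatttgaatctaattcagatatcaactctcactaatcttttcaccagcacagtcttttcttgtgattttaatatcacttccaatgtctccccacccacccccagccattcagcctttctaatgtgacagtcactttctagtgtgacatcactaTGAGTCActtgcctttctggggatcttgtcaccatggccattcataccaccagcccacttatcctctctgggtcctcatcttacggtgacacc
A530046M15Rik, chr13:15806993-15807292, + strand, between Gli3 and Inhba: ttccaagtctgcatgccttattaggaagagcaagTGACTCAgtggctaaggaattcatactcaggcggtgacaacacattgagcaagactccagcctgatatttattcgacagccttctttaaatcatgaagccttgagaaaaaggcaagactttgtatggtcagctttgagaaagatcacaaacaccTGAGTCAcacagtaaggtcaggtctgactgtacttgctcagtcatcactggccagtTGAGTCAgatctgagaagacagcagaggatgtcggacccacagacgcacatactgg

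The next 2 windows lie in regions called in 6 of 6 control and 0 of 6 stimulated libraries. The capitals mark the RUNX motif TGTGGTT in Gm42217, and in Gm41301 the reverse complement of the CTCF motif AGGTGGC followed by an AP-1 motif.
Gm42217, chr3:40480656-40480955, + strand, between Fat4 and Intu: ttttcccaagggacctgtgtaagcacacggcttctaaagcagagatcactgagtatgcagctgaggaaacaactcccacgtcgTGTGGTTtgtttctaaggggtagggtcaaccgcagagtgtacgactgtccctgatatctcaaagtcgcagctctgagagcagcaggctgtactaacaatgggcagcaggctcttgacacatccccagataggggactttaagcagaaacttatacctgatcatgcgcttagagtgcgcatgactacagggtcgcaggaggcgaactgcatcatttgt
Gm41301, chr15:37135692-37135991, - strand, between LOC115488529 and Grhl2: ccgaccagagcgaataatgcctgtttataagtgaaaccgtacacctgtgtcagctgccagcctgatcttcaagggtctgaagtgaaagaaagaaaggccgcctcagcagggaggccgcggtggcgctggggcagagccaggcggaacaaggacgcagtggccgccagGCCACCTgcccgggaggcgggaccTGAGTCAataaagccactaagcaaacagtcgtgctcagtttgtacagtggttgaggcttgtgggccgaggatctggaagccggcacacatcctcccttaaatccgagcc

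The last window lies in a region called in 6 of 6 KO and 0 of 6 WT libraries, and the capitals again mark an AP-1 motif.
Gm32011, chr15:31091970-31092269, + strand, between Ctnnd2 and Dap: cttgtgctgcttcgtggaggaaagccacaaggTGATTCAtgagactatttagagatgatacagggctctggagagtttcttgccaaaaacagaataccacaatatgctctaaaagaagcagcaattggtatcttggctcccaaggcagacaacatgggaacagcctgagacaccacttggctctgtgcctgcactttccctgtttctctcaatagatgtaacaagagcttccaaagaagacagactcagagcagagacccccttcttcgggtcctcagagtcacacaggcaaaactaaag

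The region of Gm36199 had deposited folds of 18.7, 10.8 and 13.8 in the WT stimulated libraries and of 3.93, 6.83 and 13.8 in the KO stimulated libraries. This fold is the authors' own value of how far a peak rises above its local background, used here only to describe a peak within its list. All control libraries of both genotypes lacked a peak there, even a weak one, and the same held for the regions of Gm30986 and A530046M15Rik. The region of Gm42217 was called in the WT control libraries with folds of 4.81, 6.69 and 12.3 and in the KO control libraries with 9.11, 9.17 and 9.77. It kept weaker deposited peaks in the WT stimulated libraries, with folds of 3.11, 6.29 and 7.09, and had none in the KO stimulated libraries. These lists differ in length, so the contrast in weak peaks cannot be told apart from it: KO stimulated replicate 1 deposited no more intervals than were kept and can hold no weaker peak, and replicate 2 deposited 42543, against 55146 to 63128 in WT stimulated cells. The region of Gm32011 was likewise not empty in WT cells. Deposited peaks too weak to be kept lay there in 2 of 3 WT control libraries, with folds of 3.29 and 3.34, and in 3 of 3 WT stimulated libraries, with folds of 5.74, 5.31 and 6.71. Its KO folds were 8.33, 4.91 and 7.62 in control and 10.3, 6.23 and 11.8 in stimulated cells.

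Over all 135 windows inside far regions, the AP-1 motif TGANTCA was found in 34 (25.2%), against 7.81% of the 32851 windows of the RefSeq table and 7.35% of the 1620 lncRNA windows that lay inside called regions nearer to genes. The RUNX motif TGTGGTT was in 29 (21.5%), against 5.27% and 5.99%, and the T-box motif GGTGTGA in 11 (8.15%), against 3.98% and 4.38%. The STAT motif TTCNNNGAA was in 5.93% of the far windows, against 8.30% of the table, the NF-kB motif GGANTTTCC in 1.48% against 1.25%, and the CTCF motif (AGGGGGC or AGGTGGC) in 11.1% against 16%. Both strands were searched and no matches overlapped in the windows shown. Counted by region, the AP-1 motif was present in 5 of the 8 regions called more often after stimulation, in 1 of the 8 called less often and in 26 of the 97 with neither call. The RUNX motif was present in 0 of 8, 3 of 8 and 24 of 97. A match is a string of letters and does not show binding, and these counts are too few for a test.

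The cells had open chromatin at the genes that define NK cells. All 10 NK cell markers, among them Ncr1, Klrb1c, Eomes and Prf1, had a called region in or within 1 kb of the gene in all 12 libraries. Of 7 B cell markers 3 did, while Ms4a1 and Cd79b, among others, had no call in any library; of 8 T cell markers 3 did, with none at Cd3g and Cd8a. Of 8 myeloid markers 4 and of 6 erythroid markers 2 had a call in all 12. The longest list held 63128 distinct intervals, and the equal numbers kept ended at very different strengths. The weakest interval kept had a −log10 q of 1.31, 4.60 and 13.2 in the KO stimulated libraries, and of 16.6, 17.3 and 27.1 in the WT stimulated libraries, so KO stimulated replicates 1 and 2 stand apart. The lists do not hold the read depth, which is unknown.

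The far regions were narrower and less constant than accessible regions at large. Their median width was 957 bp, against 1193 bp over all regions, and their median distance to the nearest protein-coding gene was 108 kb. The most isolated one lay 1766 kb from any such gene, between Pcdh7 and G6pd2 on chromosome 5, and was called in 10 libraries. In all 12 libraries 1239 far regions (31.9%) were called, against 46.8% of all regions, while 375 (9.66%, against 7.15%) were called in just 2. The contrast was mainly with regions inside or touching genes, whose median width was 1339 bp and of which 53.2% were called in all 12. Nearer regions outside genes were close to the far ones, with 1007 bp and 34.4% up to 25 kb away. From 25 to 50 kb the values were 988 bp and 35.1%. Far space made up 37.4% of the span between the outermost genes of the chromosomes, or 1006 Mb, and held 3.82 far regions per Mb, against 24.5 regions per Mb of the rest. Just inside the limit, at 50 to 55 kb, there were 289 regions with 36.7% called in all 12 libraries, and just outside it, at 45 to 50 kb, 329 with 33.7%. By the test described below, 12.1% of the former and 10.9% of the latter were called more often after stimulation. The shares called less often were 4.84% and 7.60%.

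Non-coding genes were common among them. A non-coding gene, pseudogene or receptor gene segment overlapped 1277 far regions (32.9%), against 14.0% of the regions nearer to genes. A lncRNA gene overlapped 1067 (27.5%, against 12%). Immunoglobulin and T cell receptor gene segments, the variable, joining and constant pieces from which B and T cells assemble antigen receptors, overlapped 94 (2.42%, against 0.0218%), and 48 of these were called in all 12 libraries. Only 2 far regions overlapped a miRNA gene, those of Mir7094-1 and Mir7094-2 in the immunoglobulin heavy chain locus.

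Chromosome 12 had the most far regions, 302, which was 16% of its regions, and chromosome 11 the smallest share, 3.16%. Chromosome 10 had 297, chromosome 13 had 286 and chromosome X had 77. In the plot by chromosome, regions called more often after stimulation outnumbered those called less often on most chromosomes. On chromosome 13 these were 46 and 12 and on chromosome 1 they were 43 and 10, while chromosome 7 had 13 and 15.

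**Figure D1:**
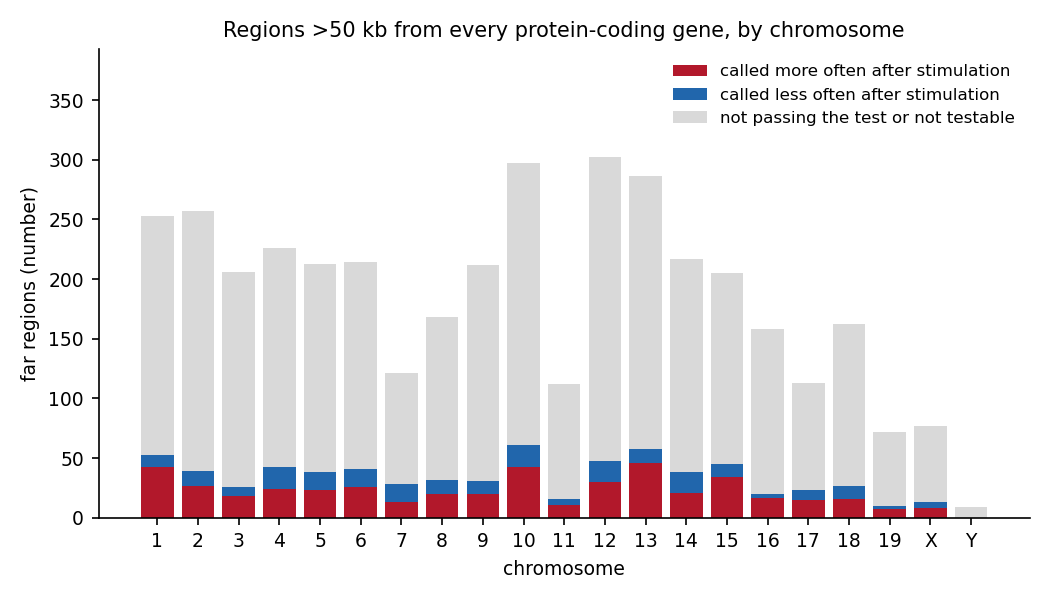
Number of far regions on each chromosome, split into those called more often after stimulation, those called less often, and the rest. Chromosomes 12, 10 and 13 hold the most, with 302, 297 and 286.

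After stimulation, a larger part of the accessible regions of a library was far. In WT control libraries 7.25%, 7.33% and 7.33% of the called regions were far, and in WT stimulated libraries 8.37%, 8.26% and 8.21%. In KO control libraries the share was 7.12%, 7.08% and 7.11%, and in KO stimulated libraries 7.68%, 7.94% and 8.12%. Every stimulated library was above every control library of either genotype. In numbers, 2447 ± 55.3 (SD, n = 3) far regions were called in WT control cells, 2808 ± 6.66 in WT cells after stimulation, 2376 ± 13.3 in KO control cells and 2565 ± 170 in KO cells after stimulation. The share was 0.892 percentage points higher with stimulation (mean of the differences in the 2 genotypes; exact permutation test within genotypes, two-sided, p = 0.005, the smallest that its 400 rearrangements can give; p = 0.0075 adjusted over 3 tests). The difference was 0.975 points in WT and 0.809 in KO cells, each at the smallest p that an exact test of 3 against 3 allows, 0.1. In these bulk samples, fewer cells with an open site and less openness per cell cannot be told apart.

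The KO libraries had slightly smaller far shares. KO was below WT in every library of the same treatment, with a difference of −0.196 points in control and −0.362 points in stimulated cells, and of −0.279 points over both (exact permutation test within treatments, two-sided, p = 0.005; adjusted p = 0.0075). This call ended when all deposited intervals were used (−0.290 points, adjusted exact p = 0.2) and when the distance was measured from all genes, non-coding ones included (−0.0302 points, adjusted exact p = 0.3). The KO stimulated shares of 7.68%, 7.94% and 8.12% came from lists that ended at −log10 q of 1.31, 4.60 and 13.2, and the difference was −0.242 points (adjusted exact p = 0.0188) without the first 2 of these libraries. B cell marker genes held 6 to 8 called regions in KO and 8 to 10 in WT libraries. Without regions on receptor gene segments the difference was −0.264 points (adjusted exact p = 0.0075). That step left out no other regions, and the part of B cell marker genes in the result was not tested. The effect of stimulation differed between KO and WT cells by −0.166 points, which did not pass (exact permutation p = 0.49).

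**Figure D2:**
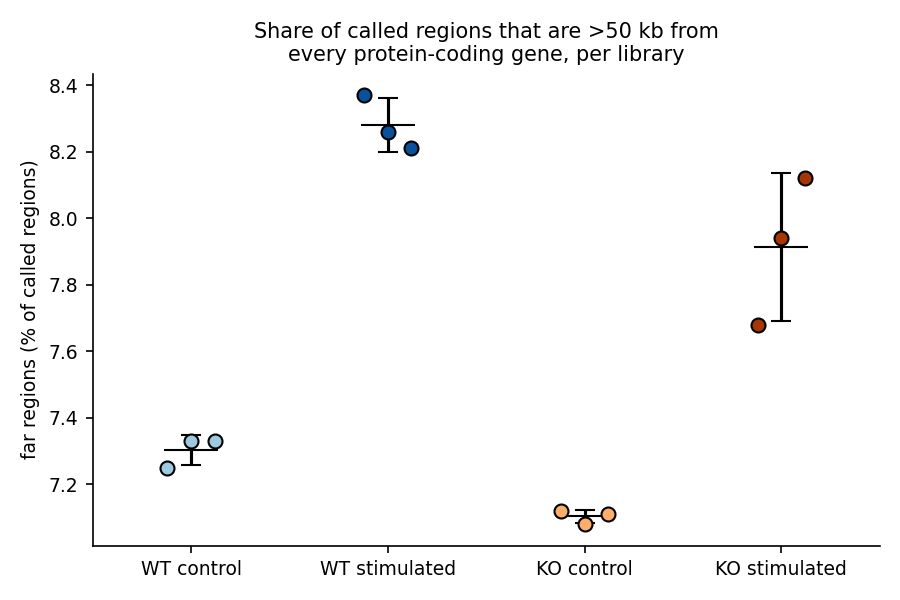
Percent of the called regions of each library that are far, by group; points are libraries, horizontal lines the mean and error bars the SD of 3 libraries, and the axis does not start at 0. All 6 stimulated libraries lie between 7.68% and 8.37%, and all 6 control libraries between 7.08% and 7.33%.

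Single far regions were tested by the number of libraries that called them, with both genotypes combined (exact conditional permutation test within genotypes, two-sided, Benjamini-Hochberg adjustment over all 8834 regions of the genome whose calls allow p of 0.05 or less, threshold 0.05). Of the 1019 far regions that could be tested, 462 were called more often after stimulation (45.3%, against 33.8% of all regions tested and 32.3% of those nearer to genes). Another 228 were called less often (22.4%, against 25.9% and 26.4%). The adjusted p was 0.0169 where the calls separated completely and 0.0335 otherwise. Only regions with varied calls can be tested, so the shares of tested regions say nothing of the 1239 constant ones. Of all far regions, tested or not, 11.9% were called more often, against 6.62% of all regions, and 5.88% less often, against 5.08%. The contrast for those called less often thus turned with the base used. Using all deposited intervals gave 211 and 61, lists of 50% of the length gave 243 and 109, and leaving out KO stimulated replicates 1 and 2 gave 438 and 164. With the replicate number as a block the counts were 265 and 121, since only a complete separation can then reach p of 0.05.

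Many of these calls separated the treatments completely. In 6 of 6 stimulated and 0 of 6 control libraries 265 far regions were called (6.83%, against 3.60% of all regions), and 121 showed the reverse (3.12%, against 2.20%). A call means a peak among those kept: of the 265, 133 had no deposited control peak at all, and of the 121, 20 had no deposited stimulated peak. Among the 462 far regions called more often, 215 (46.5%) were without any control peak in the full lists, against 38.8% of all such regions. Among the 228 called less often, 39 (17.1%) had none in any stimulated library, against 9.25%. The full lists differed in length, with 42520 to 53440 intervals in WT control and 46971 to 53258 in KO control libraries. WT stimulated lists held 55146 to 63128 and KO stimulated lists at most 54303. A longer list can hold more weak peaks, and the part of list length in these counts was not tested. The regions called more often were 916 bp wide in the median and those called less often 878 bp, against 1430 bp for those called in all 12 libraries.

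By distance, the share of regions called more often was 5.29% of regions inside or touching a gene, 8.25% up to 25 kb away, 8.74% from 25 to 50 kb, 11.6% from 50 to 100 kb, 11.4% from 100 to 200 kb, 14.0% from 200 to 500 kb and 10.4% beyond 500 kb. The corresponding shares called less often were 4.71%, 5.68%, 6.31%, 6.24%, 5.71%, 5.48% and 4.92%. The share called more often thus differed between distances by more than the share called less often did. These percentages are of all regions in a bin, tested or not, and the last bin held 183 regions.

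**Figure D3:**
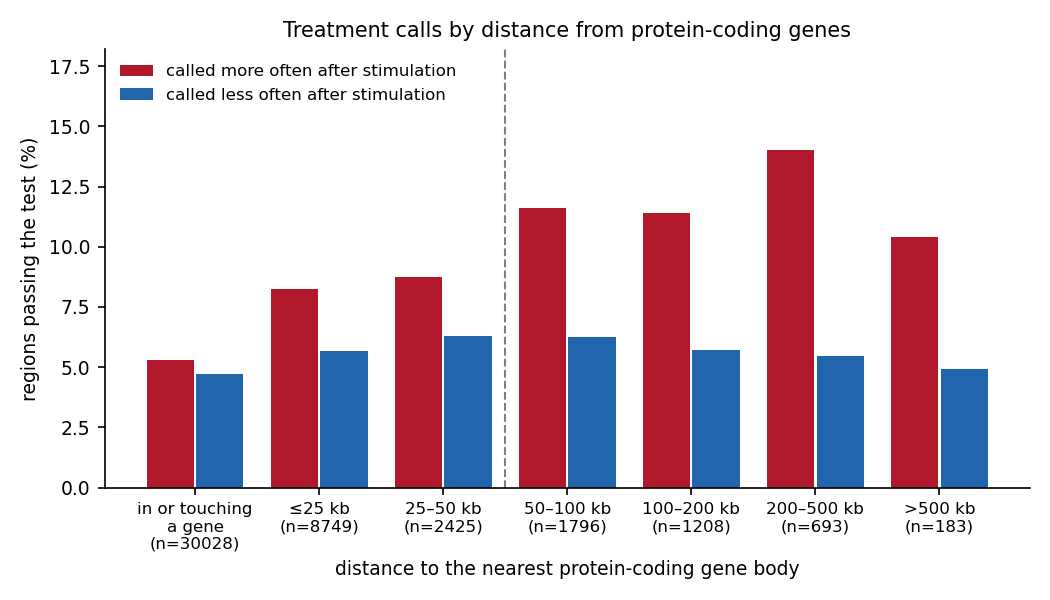
Percent of regions called more often (red) and less often (blue) after stimulation, by distance to the nearest protein-coding gene body; the dashed line is the 50 kb limit and n is the number of regions. The red bars go from 5.29% inside genes to 14.0% at 200 to 500 kb, and the blue bars stay between 4.71% and 6.31%.

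Within single genotypes, a region was counted as gained when all 3 stimulated libraries called it and 0 of 3 control libraries did, and as lost in the reverse case. WT cells gained 626 far regions (16.1%, against 9.42% of all regions) and lost 302 (7.78%, against 6.42%). KO cells gained 371 (9.56%, against 5.19%) and lost 220 (5.67%, against 4.65%). Without KO stimulated replicates 1 and 2, whose lists were the weakest, only replicate 3 would be left. The rule would then ask for fewer calls and the KO counts could rise for that reason alone, so they are not compared. The 265 gained in both genotypes and the 121 lost in both are the complete separations above. Of the 626 gained in WT cells, 346 were called in 3 of 3 KO stimulated libraries and 56 in none, and 24 were already called in 3 of 3 KO control libraries. None was gained in one genotype and lost in the other.

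Calls confined to 1 group, in 3 of 3 libraries there and 0 of 9 elsewhere, were found for 35 far regions in WT control cells (0.902%, against 0.497% of all regions), for 54 in WT stimulated cells (1.39%, against 0.794%), for 5 in KO control cells (0.129%, against 0.186%) and for 33 in KO stimulated cells (0.851%, against 0.426%). KO control cells thus had the fewest regions of their own, among the far regions as among all regions. Not called in any library of 1 group alone, and called in 3 of 3 libraries of every other, were 29 far regions in KO stimulated cells (0.747%, against 0.344%), 9 in WT stimulated cells (0.232%, against 0.177%) and 8 in KO control cells (0.206%, against 0.0688%); those not called in WT control cells are described with the genotype. No far region was called in WT stimulated and KO control cells alone (0.00222% of all regions were).

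Among far regions called in all 6 stimulated libraries and without any deposited control peak, the strongest lay in the gene-poor stretch between Satb1 and Kcnh8. This region was at chr17:52076304-52077311, 243 kb from Satb1, which encodes a chromatin organizer of lymphocytes. Its deposited folds were 51.2, 48.6 and 59.7 in the WT stimulated and 21.8, 18.1 and 33.7 in the KO stimulated libraries, at a median rank of 5882 within the lists (1 is the strongest). No control library had a peak there. A region at chr15:62821373-62822619, 831 kb from Myc, a regulator of growth, had WT stimulated folds of 40.0, 35.6 and 53.2 and KO stimulated folds of 16.4, 22.1 and 38.5, and again no control peak. In both regions the calls separated the 6 stimulated from the 6 control libraries completely (adjusted exact p = 0.0169).

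The other 6 of the 8 strongest regions of this kind lay between Hephl1 and Vstm5 on chromosome 9, next to Setbp1 on chromosome 18, between Bdh1 and Gm536 on chromosome 16, in the Satb1 stretch again at 298 kb from that gene, between Snx13 and Ahr on chromosome 12, and between St3gal1 and Zfat on chromosome 15. The region at chr12:35291485-35292503 was 205 kb from Ahr, which encodes the aryl hydrocarbon receptor, a ligand-activated transcription factor. Its folds were 26.1, 24.8 and 23.3 in WT stimulated and 10.7, 11.5 and 25.6 in KO stimulated libraries. All 8 had no deposited control peak, as the rule for naming them required. In each of them the lowest fold was in KO stimulated replicate 1 or 2, the libraries with the weakest lists, and folds of different libraries are not on 1 scale.

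The 8 strongest regions that were called in every control library and had no stimulated peak were weaker. The leading one, between 4933412E24Rik and Lratd2 at chr15:60119827-60120457, had folds of 13.7, 14.6 and 17.8 in WT control and 7.81, 9.39 and 6.06 in KO control libraries, at a median rank of 20804. A region 239 kb from Cdkn2b, which encodes an inhibitor of the cell cycle, had 13.2, 13.4 and 17.4 in WT control and 9.63, 9.39 and 11.3 in KO control libraries (chr4:89550173-89551395). A region 65.4 kb from Ikzf2, which encodes the transcription factor Helios, had 8.35, 9.25 and 11.3 in WT control and 8.85, 7.47 and 10.9 in KO control libraries (chr1:69752756-69753282). In each the adjusted exact p was 0.0169. Further ones lay between Sp4 and Sp8, Med13l and Tbx3, Spin2c and Samt1, and Parm1 and Rchy1. When a call had to cover 50% of the region, 3 of the 8 no longer passed, those of Lratd2, Sp4 and Spin2c.

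The far regions were unevenly spread over 1015 stretches between neighbouring protein-coding genes. In 418 stretches there was 1 far region, while 88 stretches with 10 or more held 1453 of the 3880 (37.4%). Stretches with at least 1 region called more often and none called less often numbered 206, those with the reverse 112, those with both kinds 69 and those with neither 628. Among the 252 stretches with 5 or more far regions, all stimulated libraries had more calls than all control libraries of their genotype in 58 (23.0%), and fewer in 17 (6.75%). The plot of calls by stretch shows the 9 richest.

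**Figure D4:**
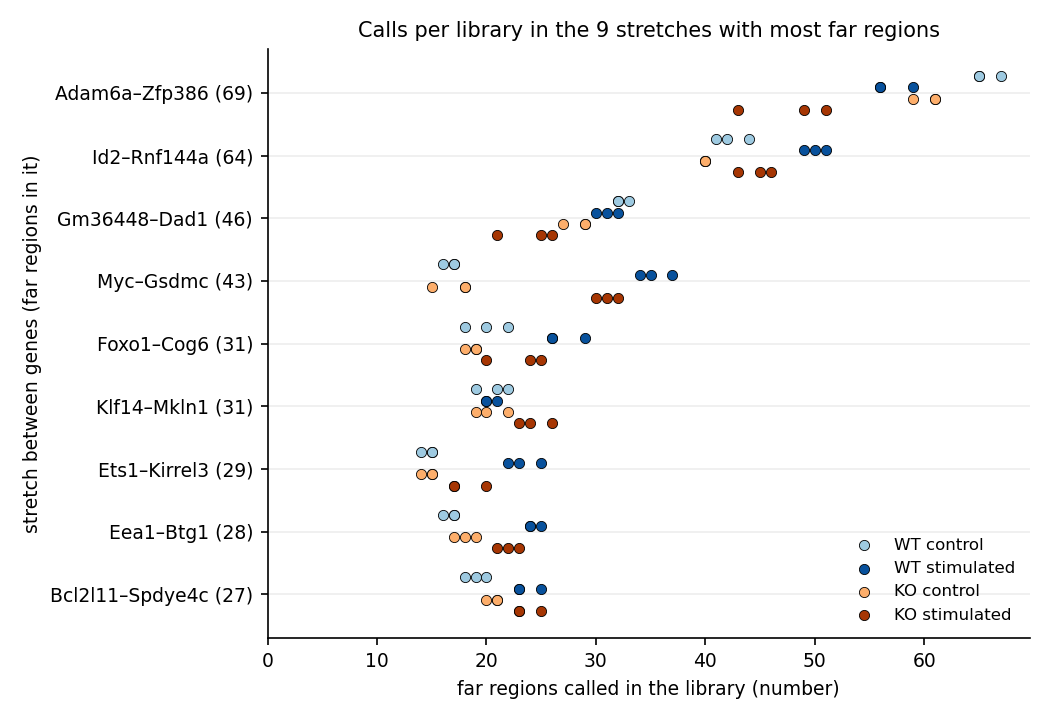
Far regions called in each library in the 9 stretches with most far regions (total in parentheses); each point is 1 library, coloured by group. Between Myc and Gsdmc control libraries have 15 to 18 calls and stimulated libraries 30 to 37, while between Adam6a and Zfp386 control libraries have 59 to 67 and stimulated libraries 43 to 59.

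The richest stretch was the variable part of the immunoglobulin heavy chain locus, between Adam6a and Zfp386 on chromosome 12, with 69 far regions, 62 of them on gene segments. WT control libraries called 65, 65 and 67 of them, WT stimulated 56, 56 and 59, KO control 61, 59 and 61, and KO stimulated 43, 49 and 51. Stimulated libraries had fewer calls than controls of their genotype, and KO libraries fewer than WT libraries of the same treatment. By the test of single regions 6 were called less often after stimulation and 0 more often. The T cell receptor alpha stretch between Gm36448 and Dad1 on chromosome 14, with 46 far regions and 25 on segments, had 32, 33 and 32 calls in WT control, 31, 30 and 32 after stimulation of WT cells, 29, 29 and 27 in KO control libraries and 26, 21 and 25 after stimulation of KO cells. B cell marker genes held 8 to 10 called regions per library in WT control, 9 to 10 in WT stimulated and 6 to 8 in each KO group, and T cell marker genes 5 to 8 in any library. Their part in the result was not tested.

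Myc stood beside the stretch with most regions called more often. Between Myc and Gsdmc on chromosome 15, 43 far regions were spread over 1786 kb, 20 of them on lncRNA genes, most often Pvt1. Control libraries called 17, 16 and 17 (WT) and 18, 15 and 18 (KO) of them, and stimulated libraries 34, 37 and 35 (WT) and 30, 32 and 31 (KO). The groups did not overlap by treatment. By the test 14 were called more often after stimulation, from 182 to 1448 kb from Myc, and 1 less often, at 174 kb. Beside Pim1, which encodes a survival kinase induced by cytokines, 1 of 2 far regions was called more often, the one that holds the start of Gm36199. Over the list of 18 growth and survival genes, 8 flanked a far region, and their 132 far regions included 23 called more often and 4 less often of 38 tested (60.5% and 10.5%). The 2 stretches beside Myc made up much of this. Between Myc and Gsdmc 14 of 18 tested regions were called more often, and between A1bg and Myc 2 of 2.

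Between Satb1 and Kcnh8 there were 13 far regions. Control libraries called 5, 5 and 6 (WT) and 6, 6 and 5 (KO), and stimulated libraries 12, 11 and 12 (WT) and 10, 10 and 10 (KO). The 6 called more often lay 95.8, 112, 243, 282, 292 and 298 kb from Satb1 and were followed in the map of the stretches by regions at 315, 329 and 334 kb that all 12 libraries called. The 1 called less often lay at 615 kb. Between Sema6d and Slc24a5 on chromosome 2, WT control libraries called 9 of 17 regions each and WT stimulated libraries 15 each, with 11, 11 and 9 in KO control and 14, 15 and 15 in KO stimulated libraries; 6 passed as called more often and 1 as called less often.

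**Figure D5:**
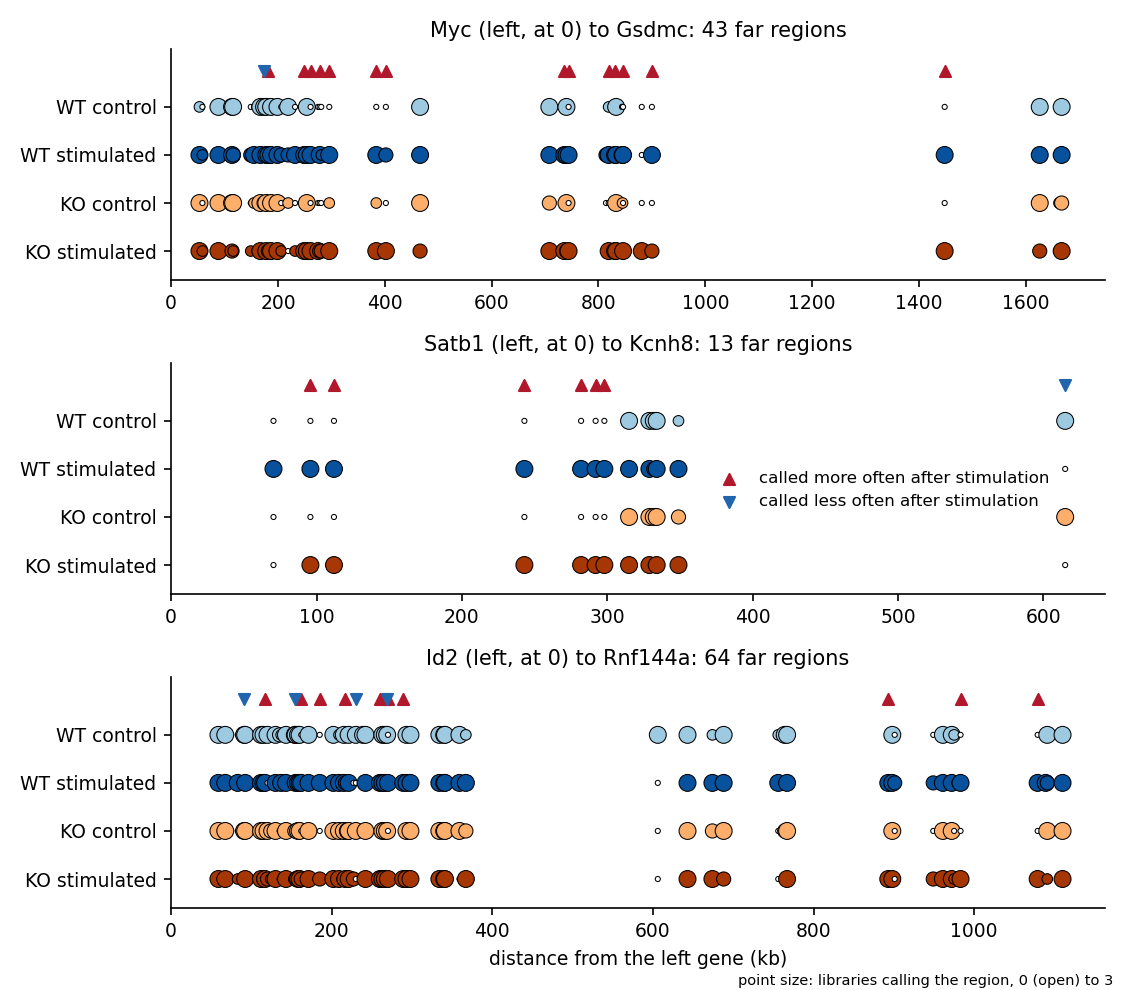
Far regions in 3 stretches by distance from the left gene in kb; point size gives how many of 3 libraries of a group called the region (open, 0), and triangles mark regions called more (red) or less (blue) often after stimulation. Of the 43 far regions between Myc and Gsdmc 14 carry a red triangle, of the 13 between Satb1 and Kcnh8 6, and of the 64 between Id2 and Rnf144a 10.

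Id2, Foxo1 and Ets1, genes of transcription factors that shape NK cells, flanked 3 of the 9 richest stretches. Of 41 genes of such factors 27 flanked a far region, and of their 349 far regions 96 could be tested, with 48 called more often and 23 less often (50% and 24%). Id2, which encodes an inhibitor of E proteins required for NK cell development, had 64 far regions towards Rnf144a. Control libraries called 44, 42 and 41 (WT) and 40, 40 and 40 (KO) of these, and stimulated libraries 49, 50 and 51 (WT) and 43, 46 and 45 (KO). There 10 passed as called more often and 4 as called less often, the latter 90.8 to 269 kb from Id2 and interspersed with the former.

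Ets1 encodes an ETS factor of NK cell development, and 29 far regions lay between it and Kirrel3. Control libraries called 14 or 15 of them in either genotype, WT stimulated libraries 23, 25 and 22, and KO stimulated libraries 17, 20 and 17. The 5 called more often lay 223 to 276 kb from Ets1. Foxo1 encodes a factor of lymphocyte quiescence, and its stretch towards Cog6 had 31 far regions with 5 called more often and 0 less often. One at 126 kb from Foxo1, within the lncRNA gene Gm38537, had WT stimulated folds of 32.3, 22.0 and 26.9, KO stimulated folds of 9.64, 7.43 and 16.5 and no control peak (adjusted exact p = 0.0169).

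Prdm1 encodes Blimp-1, a regulator of lymphocyte maturation, and had 14 far regions towards Prep. Control libraries called 7, 6 and 7 (WT) and 5, 5 and 5 (KO) of them, and stimulated libraries 10, 9 and 10 (WT) and 10, 11 and 10 (KO). There 5 passed as called more often and 1 as called less often. Nr4a3, which encodes a nuclear receptor induced by activation, stood on the other side: between Sec61b and Nr4a3, control libraries called 5 or 6 of 6 far regions and stimulated libraries 2 to 4, and 2 were called less often. Regions called less often, with none called more often, also lay beside Ikzf2, Klf12, Lef1, Myb, Runx1 and Zfp36l2, with 1 or 2 regions each.

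Gata3, a factor of innate lymphoid cells, had 3 of 18 far regions towards Celf2 called more often and 0 less often, and Hlx, a homeobox factor, 3 of 10 towards Dusp10. In the Hlx stretch WT control libraries called 4, 3 and 3, WT stimulated 9, 9 and 9, KO control 3, 3 and 4, and KO stimulated 6, 7 and 7. Beside Eomes, a T-box factor of NK cells, 0 of 11 far regions passed in either direction, with 1 tested.

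Far regions beside genes of NF-kB, AP-1 and STAT factors were few, since 4 of the 42 genes on that list flanked one. Their 49 far regions included 9 called more often and 2 less often of 14 tested. Tnfaip3 encodes A20, an inhibitor of NF-kB signalling, and 18 far regions lay between it and Olig3. Control libraries called 7, 8 and 10 (WT) and 7, 6 and 6 (KO) of them, and stimulated libraries 15, 14 and 15 (WT) and 12, 11 and 14 (KO). Of these 3 passed as called more often and 0 as called less often, although with lists of 50% of the length the less often called outnumbered the others by 1. One, 150 kb from Tnfaip3, had WT stimulated folds of 26.6, 17.3 and 25.5, KO stimulated folds of 4.64, 6.83 and 12.5, and no control peak (adjusted exact p = 0.0169). Jun encodes an AP-1 subunit, and 3 of 15 far regions towards Fggy were called more often and 1 less often, an order that turned when a call had to cover 50% of the region. The same counts for Nfkbiz, an inducible regulator of NF-kB, were 2 and 1 of 11.

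Among 49 genes of cytokines, chemokines and their receptors, 10 flanked a far region, and of 71 such regions 6 were called more often and 2 less often of 17 tested. Beside Ifng, the interferon gamma gene, regions of both kinds lay. Between Iltifb and Ifng, a region 53.8 kb from Ifng (chr10:118386051-118387285) had folds of 22.2, 29.1 and 31.7 in WT stimulated and 16.8, 11 and 24.1 in KO stimulated libraries. Peaks too weak to be kept were present in 1 WT control library, with a fold of 3.23, and in the 3 KO control libraries, with 2.86, 4.69 and 5.47. The call passed as more frequent after stimulation (adjusted exact p = 0.0169). On the other side, towards Dyrk2, 1 of 18 far regions was called more often and 1 less often. The latter, 335 kb from Ifng (chr10:118780781-118781416), had folds of 12.4, 10.2 and 11.5 in WT control and 7.29, 10.2 and 11.1 in KO control libraries, with weaker peaks in 3 WT and 1 KO stimulated libraries (adjusted exact p = 0.0169). WT control libraries called 12, 14 and 12 of the 18 and WT stimulated 15, 15 and 16, while KO control libraries called 12, 10 and 13 and KO stimulated 11, 12 and 13, which overlap. Beside Csf2, which encodes the growth factor GM-CSF, 2 of 3 far regions were called more often and neither had a control peak. The nearer one, 59.0 kb from Csf2, had folds of 10, 10.4 and 11.6 in WT stimulated and 5.0, 7.43 and 12.9 in KO stimulated libraries.

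Genes of cytotoxicity, NK receptors and checkpoints had 29 far regions beside 6 of the 38 genes, with 9 called more often and 2 less often of 13 tested. Fasl encodes Fas ligand, which triggers death of target cells, and 10 far regions lay between Tnfsf18 and Fasl. Control libraries called 5, 4 and 4 (WT) and 5, 5 and 5 (KO), and stimulated libraries 8, 9 and 9 (WT) and 10, 9 and 10 (KO), with 4 called more often and 0 less often. The only far region between Cd28 and Ctla4, genes of a costimulatory and an inhibitory receptor, had folds of 24.9, 18.9 and 21.6 in WT stimulated and 6.78, 9.04 and 15.9 in KO stimulated libraries, against 1 control peak with a fold of 3.15 (adjusted exact p = 0.0169).

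Of 13 genes of RNA decay and Regnase-1 relatives, 5 flanked a far region. Their 29 far regions included 2 called more often and 2 less often of 5 tested. Beside Zc3h12a itself no far region could be tested, so nothing can be said of a change there. Beside Zc3h12c, a paralogue, 1 of 7 was called more often, with 2 tested. The 2 called less often both lay between Haao and Zfp36l2, which encodes an mRNA-destabilizing protein. In the list of 14 ubiquitous genes 2 flanked a far region, with 1 of 3 tested called more often. All counts by list are of far regions, of which 45.3% of those tested were called more often and 22.4% less often (33.8% and 25.9% of all tested regions). Against the far regions at large, the share called more often beside NK cell transcription factors (50%) was close and that beside cytokine and receptor genes (35.3%) was lower, with no test of either difference. Stretches that share a gene or neighbour count under each.

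No single far region passed the test of the genotype. Of 170 far regions that could be tested 0 were called more often and 0 less often in KO, as for all 1817 regions tested (0%), and the smallest adjusted p was 0.147. With the replicate number as a block, 2 passed as called more often and 7 as called less often in KO. These are the regions that separated completely, the only ones that could pass under the block, and each then has the smallest p of that test, 0.0312 (exact). Without the block, with 1817 regions tested, 182 regions would have to separate completely for a call, and 57 did. At an unadjusted exact p of 0.05 or less, 18 far regions were called more often in KO (10.6%, against 14.3% of all regions tested) and 41 less often (24.1%, against 12.1%). In 6 of 6 KO and 0 of 6 WT libraries 2 far regions were called (0.0515%, against 0.0688% of all regions), and 7 showed the reverse (0.180%, against 0.0577%).

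The 2 far regions called in KO libraries alone lay 218 kb from Btg1, which encodes an antiproliferative protein, and at the start of Gm32011 shown above. The region near Btg1 (chr10:96398379-96399063) had folds of 12.2, 13.7 and 8.99 in KO control and 6.07, 6.03 and 9.03 in KO stimulated libraries, and weaker peaks were deposited in the 3 WT stimulated libraries. Of the 7 called in WT libraries alone, the one with the best median rank lay between Zeb2 and Acvr2a at chr2:48694419-48694821. Its folds were 7.85, 8.85 and 13.9 in WT control and 11.7, 11 and 10.8 in WT stimulated libraries, and 1 KO stimulated library had a weaker peak. For both regions the unadjusted exact p was 0.005 and the adjusted exact p 0.147.

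Some far regions were not called in WT control cells alone. Called in 0 of 3 WT control and in 3 of 3 libraries of each other group were 23 far regions (0.593%, against 0.506% of all regions). Most of them were weaker in WT control cells and not absent: 17 had a deposited peak too weak to be kept in at least 1 WT control library, 10 of these in all 3, and 6 had none. One of the 6 lay 91.7 kb from Il6, the gene of an inflammatory cytokine whose messenger RNA Regnase-1 is known to degrade, at chr5:29919760-29921437. It had no deposited peak in the 3 WT control libraries. Its folds were 16.9, 14.5 and 16.6 in KO control, 37.8, 37.0 and 47.7 in WT stimulated and 31.8, 33.1 and 46.4 in KO stimulated libraries. With 3 against 3 control libraries its exact p is 0.1, the smallest possible.

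Over the whole stretch between Dnajb6 and Il6, with 13 far regions, WT control libraries called 7, 6 and 6, KO control 8, 9 and 8, WT stimulated 9, 9 and 9, and KO stimulated 12, 13 and 13. The groups thus did not overlap by genotype or by treatment. A region 76.2 kb from Il6 was called in KO stimulated libraries alone, with folds of 13.6, 13.7 and 23.6, while the WT stimulated lists held weaker peaks there with folds of 3.35, 5.51 and 8.02. A further region of the set of 23, 60.0 kb from Ifng within the lncRNA gene Ifngas1, had deposited peaks in all groups. Its folds were 2.78, 4.92 and 6.05 in WT control, below the intervals kept, and 7.81, 6.83 and 6.84 in KO control libraries.

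Of the 252 stretches with 5 or more far regions, KO libraries had more calls than all WT libraries in both treatments in 4 (1.59%), and fewer in 11 (4.37%). These stretches were picked after their values were seen. The 4 were Dnajb6 to Il6, Tprg to Trp63, Icos to Pard3b and Fam43a to Xxylt1. Between Icos, a costimulatory receptor gene, and Pard3b, WT control libraries called 1 of 6 regions each and KO control libraries 5, 4 and 3. The 11 with fewer calls in KO included the heavy chain, T cell receptor alpha and Id2 stretches above, Cd83 to Jarid2, Bcl6 to Lpp and Tgfbr2 to Rbms3. Between Tgfbr2, which encodes a receptor of the inhibitory cytokine TGF-beta, and Rbms3, every WT library called 9 of 11 far regions, KO control libraries 8, 8 and 7, and KO stimulated libraries 6, 8 and 8.

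By chromosome, KO libraries called fewer far regions than WT libraries in both treatments on 5 chromosomes, 9, 10, 12, 13 and 14, and more on none. On chromosome 10, WT control libraries called 186 ± 1.00 (SD, n = 3) and KO control 173 ± 4.36, and WT stimulated 221 ± 5.57 and KO stimulated 204 ± 10.8. All stimulated libraries were above the controls of their genotype on 6 chromosomes, 1, 6, 10, 13, 15 and 16, and below them on none. Chromosome-wide counts had no test of their own, and like the calls by stretch they are numbers and not shares. KO stimulated libraries called fewer regions in all, far or near, 31101 to 33601 against 33632 to 34191 in WT stimulated libraries. In control libraries these totals were 33318 to 33616 (KO) and 32892 to 33914 (WT).

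Far regions called in all 12 libraries included some of the strongest peaks of the lists. Between Smim20 and Rbpj, which encodes the transcription factor of Notch signalling, a region 63.9 kb from Rbpj had folds of 33.5 to 136 and a median rank of 801. Another of these, 52.1 kb from Wnt7b within the lncRNA gene D130051D11Rik, had folds of 45.7 to 161 and a median rank of 182. Of the 46 regions of the genome whose deposited fold exceeded 238, 17 were far, while 8.61% of all regions were. These 17 stood apart from the other members, since the highest fold of a far region was 15.8 in the median. The highest, at chr2:98666217-98667347 between Lrrc4c and Iftap, had folds of 4805 to 7138 and ranked 1 in every library. One between Esp15 and Esp38 on chromosome 17 overlaps the ribosomal RNA pseudogene Rn18s-rs5 and had folds of 1290 to 2531. Without the 46 regions, the far share was 0.895 points higher with stimulation, and the counts of 462 and 228 did not move.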

How the data were processed

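Peak lists of 12 ATAC-seq libraries in narrowPeak format were used, 1 per library, with 3 libraries per group. The submitters' processing notes name MACS2 2.1.1.20160309, Bowtie2 2.3.4.1, cutadapt 4.1, FastQC 0.11.9, SAMtools 1.15.1 and deepTools 3.4.2 among the tools, and mm10 as the genome build. Their settings are not given in the sources used here. The deposited fold column is a ratio of enrichment over background, the deposited p and q columns are −log10 values, the deposited score column was not used, and the last deposited column gives the summit, used in 1 alternative. Read counts were not used here.

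Distinct intervals on chromosomes 1 to 19, X and Y were ranked by −log10 q (ties by −log10 p, then position), and the strongest of each library, as many as the shortest list held, were merged where they shared 1 bp. Of these, regions with calls from 2 or more libraries entered, and distances were taken to 21887 protein-coding genes of RefSeq (GRCm38.p6); 28056 other genes served for overlaps. Shares and single regions were tested with exact permutation tests within strata (400 rearrangements, smallest p 0.005), with Benjamini-Hochberg adjustment over all regions whose calls allow p of 0.05 or less, using Python 3.11.15, NumPy 2.4.6, pandas 2.3.3 and matplotlib 3.10.9. The test was tested on simulated data. Counting error is unknown, because the lists hold no depth.

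The members, gene lists and tests were chosen with earlier results of these data known. Named regions were the 8 strongest called in 6 of 6 libraries of one treatment with no deposited peak in the other 6, in each direction, the 5 with the largest genotype difference, and the 6 strongest called in all 12. Named stretches were the 10 with most far regions, the 5 each with most regions called more or less often, and those beside a listed gene whose far region passed. Other regions and stretches were chosen after their values were seen, among them those picked by genotype, those absent from WT control cells and the 6 sequences. A stretch, a region and a marker gene that the rules name are not reported here. No 2 libraries shared more than 0.173% of their intervals, so none was counted as a duplicate. A motif search of the regions themselves was planned and not run, because no genome sequence was used here.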

Additional observations from a re-analysis of the deposited data

How the results depend on the processing

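Stimulated libraries had the higher far share under every alternative run, from 0.167 points (distance from all genes, non-coding included) to 1.23 points (a call covering 50% of the region), and leaving out 1 library gave 0.813 to 0.926. The genotype difference was −0.344 to −0.239 without 1 library, and did not pass with all deposited intervals (−0.290) or with distance from all genes (−0.0302), where the difference of the treatment effects also turned to 0.0158 (−0.294 to −0.0662 without 1 library). Regions called more often after stimulation numbered 471 to 568 and those called less often 237 to 267 without 1 library, and none passed by genotype (0 to 0). With all deposited intervals the counts were 211 and 61, with lists of 50% of the length 243 and 109, beyond 100 kb 254 and 116, with distance from all genes 79 and 30, and beyond 25 kb 381 were called less often. Fewer regions were eligible under the larger distances; other causes were not tested.

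Regions gained in WT cells numbered 626 to 691 and lost 302 to 395 without 1 library, and in KO cells 371 to 505 and 220 to 290. Leaving out a library loosens the rule for its genotype, so these counts can rise for that reason alone. WT gains were 1134 with all deposited intervals, 313 with lists of 50% of the length, 349 beyond 100 kb and 103 with all genes, and WT losses 145, 143, 156 and 54, with 484 beyond 25 kb. KO gains were 206 with lists of 50% of the length, 196 beyond 100 kb and 67 with all genes, and KO losses 99, 115 and 36, with 365 beyond 25 kb. Without KO stimulated replicates 1 and 2, an alternative chosen after seeing the data, KO gains were 656 and losses 364.

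Replicate numbers are shared between groups, and the labels do not say what they mark. Over 21089 regions, deviations of same-numbered libraries correlated by 0.20, 0.18 and 0.16 between KO control and KO stimulated, each library best with its own number, and by 0.34, 0.18 and 0.11 between WT control and KO control. They correlated by 0.18, 0.05 and 0.20 between WT control and WT stimulated and by 0.02, −0.02 and 0.04 between WT stimulated and KO stimulated. Between WT control and KO control, replicate 3 was best with number 2, and between WT control and WT stimulated, replicate 2 was best with number 3. The data thus do not settle whether equal numbers mark pairs, and the main tests have no block. With the replicate block, 265 regions were called more often and 121 less often after stimulation, and 2 more often and 7 less often in KO.

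In stretches, the number called more often minus the number called less often turned to 1 for Gm36448 to Dad1, Sall3 to Galr1 and Itga1 to Isl1 with all deposited intervals, to 1 for Sall3 to Galr1 and Tox to Car8 with the replicate block and without KO stimulated replicates 1 and 2, to −1 for Tnfaip3 to Olig3 and A1bg to Myc with lists of 50% of the length, to −1 for Jun to Fggy with 50% coverage, and to −1 for Wwox to Maf with the replicate block and without KO control replicate 1. Of the named regions called less often, those of Lratd2 (−0.667), Sp4 (−0.667) and Spin2c (−0.500, difference in the share of libraries) no longer passed with 50% coverage.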
